A study of Drosophila melanogaster with 9 samples.

Results

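Transcript levels in a Drosophila melanogaster SXC mutant were set against wild type on 6 of the 9 Affymetrix Drosophila_2 arrays of the study, 3 arrays from the SXC mutant and 3 from wild type. The remaining 3 arrays came from an OGA mutant. All 6 arrays were chosen by their group labels, and all 18769 probe sets that are not controls were tested, with no selection on their values. The labels give the groups by genotype only. They name no allele, sex, tissue, stage, diet or age, and do not say whether the replicates were separate animals or cultures, so p-values measure the spread between these arrays, which may be technical.

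The product of sxc, whose full name is super sex combs, is the O-GlcNAc transferase. It attaches N-acetylglucosamine sugars to serine and threonine residues of nuclear and cytoplasmic proteins. The donor of the sugar is UDP-N-acetylglucosamine, the end product of the hexosamine pathway, and the O-GlcNAcase encoded by Oga removes the sugar again. In the fly, sxc is a Polycomb group gene: loss of its product derepresses homeotic genes, and the Polycomb group protein Polyhomeotic is a known substrate. Nucleoporins, RNA polymerase II and many transcription factors also carry the modification.

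Levels are given on the deposited log2 scale, on which a step of 1 is a 2-fold change, and each gene was read from its brightest probe set. A gene was called where the limma p-value, adjusted by the Benjamini-Hochberg method over all probe sets, was under 0.05. SXC mutant replicate 1 stood apart from the other arrays on the first principal component, which held 47.5% of the variance. It lay at −26.37, with SXC mutant replicates 2 and 3 at −14.73 and −11.10. The wild-type arrays lay at 12.29, 4.35 and 5.62 and the OGA mutant arrays at 7.71, 6.54 and 15.69. OGA mutant replicate 3 stood apart on the second component, at 18.93. A control transcript also differed with the group. For the GAPDH_r2 control, the level of the 3′ probe set minus that of the 5′ probe set was 3.29, 2.74 and 2.78 on the SXC mutant arrays, against 1.79, 2.31 and 2.04 on the wild-type arrays, and these groups did not overlap. With the other 3′ probe set of the same control the means were 2.78 in the SXC mutant and 2.15 in wild type. The differences of ACTIN (0.03 in the SXC mutant and 0.05 in wild type), eIF4a (0.21 and 0.26) and Act5C_r2 (0.748 and 0.755) were closer together. The part of this control in the results below was not tested. SXC mutant replicates 2 and 3 also lay above every wild-type array for GAPDH_r2, so leaving out replicate 1 does not remove this difference. Results are given with and without SXC mutant replicate 1 because of its place on the first component.

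The gene behind the group label was lower on each SXC mutant array. sxc, on chromosome 2R, read 10.36, 10.32 and 10.36 on the SXC mutant arrays, against 11.84, 11.87 and 11.79 on the wild-type arrays. The groups were far apart and did not overlap, with a log2 change of −1.49 (SE 0.06, 2.81-fold lower, limma adjusted p = 4.66e-07), and without SXC mutant replicate 1 the change was −1.50. Oga read 9.82, 9.81 and 9.99 in the SXC mutant, against 10.13, 9.68 and 9.88 in wild type. These values overlap, the log2 difference was −0.023 (95% interval −0.25 to 0.21, limma adjusted p = 0.938), and its sign turned under several settings. On the OGA mutant arrays Oga read 8.88, 8.90 and 8.75, so the labels of both mutants matched a lower level of the gene they name.

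**Figure D1:**
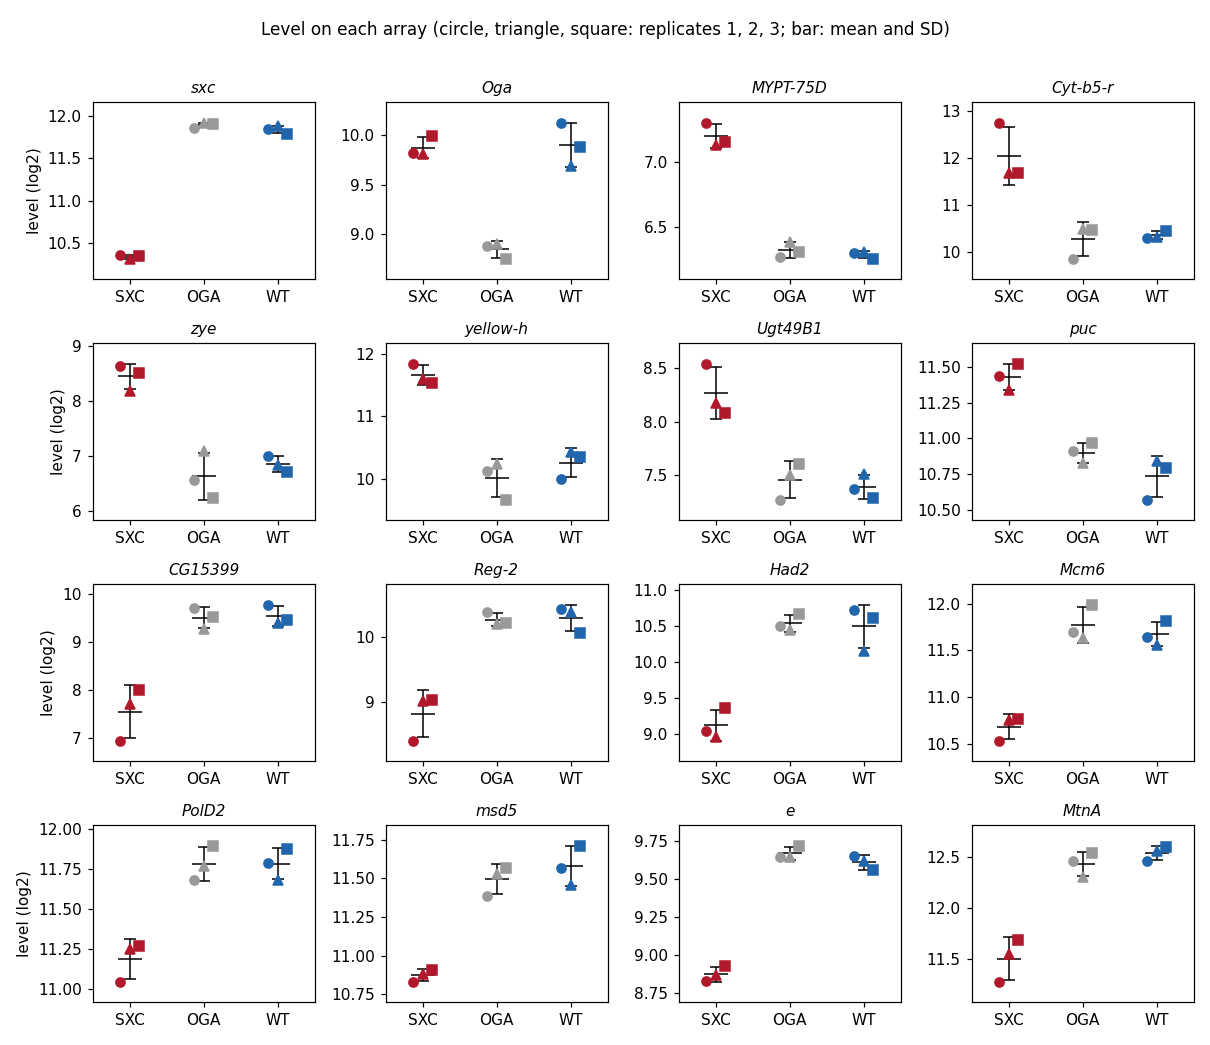
Level (log2, vertical axis, own range in each panel) of 16 genes on the 3 arrays of the SXC mutant, the OGA mutant and wild type; symbols are replicates 1 to 3, and bars give the mean and SD. sxc sits at 10.32 to 10.36 on the SXC mutant arrays and at 11.79 to 11.87 on the wild-type arrays, and the symbols of the OGA mutant lie near those of wild type except for Oga.

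In all, 1358 of 11982 genes (11.3%) changed in the SXC mutant. Of these, 532 (4.44%) were higher and 826 (6.89%) lower than in wild type. At 1.5-fold or more there were 278 (2.32%), and here rises outnumbered falls, with 150 higher and 128 lower. A total of 47 genes changed 2-fold or more. The arrays of the 2 groups did not overlap for 3915 genes (32.7%), 1356 of the called genes among them. Absence of overlap is thus the rule for a called gene, and adds no separate support where it is given below. Without SXC mutant replicate 1 the count was 683 (5.7%), 246 higher (2.05%) and 437 lower (3.65%). Of the 1358 genes, 667 were also called then. All 1358 kept the sign of their change, which was fixed in advance for the 1356 whose groups did not overlap. The count was 803 without SXC mutant replicate 2, 495 without wild type replicate 1 and 824 without wild type replicate 2. Lost calls were thus not particular to leaving out SXC mutant replicate 1. Calls were concentrated among brighter genes: of 5 groups of genes of nearly equal size by level, the 2 dimmest held 15 and 45 calls and the 3 brighter 355, 483 and 460. The values carry no call of signal above background, so a fold given for a dim gene is only the difference of its deposited log2 values. Of 1094 genes with several probe sets, 938 had none called by limma. In 141 some but not all probe sets were called, in 9 all were called higher and in 6 all were called lower, and 0 had probe sets called in opposite directions. In 45 genes the brightest probe set, which stands for the gene here, was not called while another was. The counts of the gene lists below are read against the shares of all genes, 4.44% higher and 6.89% lower, or 2.05% and 3.65% without SXC mutant replicate 1. Lists and members were chosen with earlier results of these data known, so their counts describe these data and add no independent support.

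**Figure D2:**
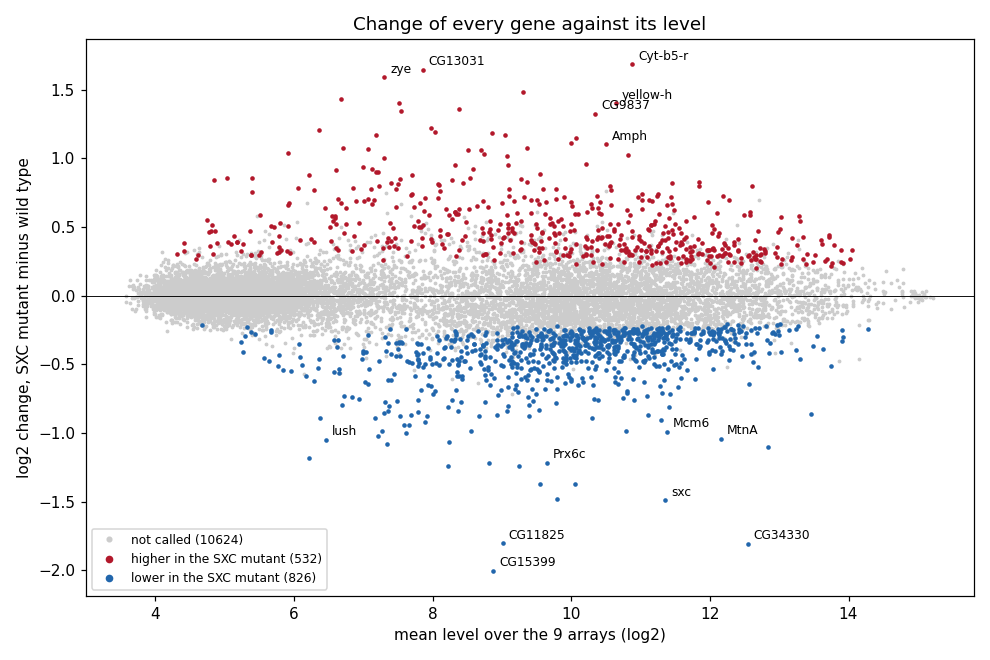
Log2 change of each of the 11982 genes (SXC mutant minus wild type, vertical axis) against its mean level over the 9 arrays (log2, horizontal axis). The 532 genes called higher and 826 called lower lie mainly at levels above 6, and the changes past 1 in either direction are few.

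The 10 rises and the 10 falls with the smallest p-values differed in size of change, up to 3.01-fold in zye, a zona pellucida domain gene, and 2.81-fold in sxc. After sxc came MYPT-75D, a targeting subunit of myosin phosphatase, which read 7.31, 7.14 and 7.16 in the SXC mutant, against 6.30, 6.30 and 6.25 in wild type. It was 1.89-fold higher (log2 0.92, SE 0.07, limma adjusted p = 0.000222), and the 2 groups were separated by several times their own spread. CG6310 read 12.04, 12.31 and 12.02 in the SXC mutant and 13.16, 13.22 and 13.28 in wild type, and fell by 1.10 on the log2 scale (SE 0.08, limma adjusted p = 0.000264). The bright cytochrome P450 gene Cyp6a13 read 12.76, 12.78 and 12.76 in the SXC mutant, against 12.11, 12.09 and 12.01 in wild type. It was 1.62-fold higher, with little scatter in either group (limma adjusted p = 0.000524). Others that rose were bowl, a zinc finger factor of the odd-skipped family (log2 0.92), wun, a lipid phosphate phosphatase known for guiding germ cells (0.70), Swim, a secreted Wingless-binding protein (0.59), and Cyp6w1 (0.53). Those that fell included CG2930 (−0.87), CG18547 (−0.76), CG15820 (−0.72) and Ppt1, the lysosomal palmitoyl-protein thioesterase (−0.73). Each of these was also called without SXC mutant replicate 1. The kinesin light chain gene Klc rose against wild type (12.93, 12.98 and 12.97 in the SXC mutant and 12.17, 12.28 and 12.02 in wild type, limma adjusted p = 0.000524). The OGA mutant arrays stood between, at 12.64, 12.79 and 12.65, and the log2 difference of the SXC mutant from them was 0.26 (limma adjusted p = 0.0597), so against those arrays Klc was not called. The others among these 20, described below with the largest changes or their families, were Amph, yellow-h, zye, e, GstT3, yin and the odorant-binding protein gene lush, which read 5.80, 5.82 and 5.85 in the SXC mutant, against 7.04, 6.97 and 6.59 in wild type.

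The 25 largest rises ran up to 3.21-fold and included enzymes, receptors and cell-surface proteins. They and the 25 largest falls were taken only from called genes whose groups did not overlap. Amph, the membrane-bending protein amphiphysin, read 11.44, 11.08 and 11.16 in the SXC mutant, against 9.88, 10.22 and 10.28 in wild type. The rise was 2.15-fold (log2 1.10, SE 0.12, limma adjusted p = 0.00101). sdt (stardust), a scaffold of the Crumbs polarity complex, read 9.47, 9.10 and 9.08 in the SXC mutant and 7.96, 8.26 and 8.25 in wild type. Its rise was 2.08-fold (limma adjusted p = 0.00141). Sr-CIII, a class C scavenger receptor, read 11.28, 10.76 and 10.73 in the SXC mutant, against 9.72, 9.83 and 9.78 in wild type. The wild-type arrays were close together, and the SXC mutant was 2.21-fold higher in the mean (limma adjusted p = 0.00258). Fa2h, a fatty acid 2-hydroxylase, rose 2.09-fold, Rph, the vesicle protein rabphilin, 2.04-fold, lectin-24A, a C-type lectin, 2.05-fold and Cyp12a4, a mitochondrial P450, 2.25-fold. The genes CG8745 (2.34-fold), Esp (2.28-fold), CG15544 (2.27-fold), CG42268 (2.24-fold), CG5001 (2.16-fold), CG44008 (2.10-fold), CG15210 (2.08-fold) and CG43336 (2.02-fold) also rose. In 23 of the 25, SXC mutant replicate 1 was the highest array.

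The 25 largest falls ran up to 4.002-fold and likewise covered several functions. The largest was that of CG15399 (limma adjusted p = 0.000989). CG34330 (3.501-fold) and CG11825 (3.485-fold) also fell by more than the 3.21-fold of the largest rise, in Cyt-b5-r. Reg-2 fell 2.79-fold and CG16888 2.58-fold. MtnA, the main metal-binding metallothionein, read 11.27, 11.54 and 11.69 in the SXC mutant, against 12.46, 12.57 and 12.60 in wild type. It fell 2.06-fold in the mean (log2 −1.04, SE 0.10, limma adjusted p = 0.000583). narya, a RING finger gene of meiotic recombination, read 6.18, 6.83 and 6.85 in the SXC mutant and 7.84, 7.62 and 7.62 in wild type. It fell 2.11-fold (limma adjusted p = 0.00361). Vago, which encodes a secreted antiviral peptide, read 6.76, 7.04 and 7.06 in the SXC mutant, against 8.23, 7.95 and 7.68 in wild type. The fall was 2.001-fold (limma adjusted p = 0.00154). path (pathetic), an amino acid transporter tied to growth, fell 1.98-fold, moody, a receptor of the blood-brain barrier, 1.98-fold, and GstT3, a glutathione transferase, 1.85-fold. The genes CG10581 (2.32-fold), CG10063 (2.10-fold), CG34054 (1.98-fold), CG31778 (1.92-fold), pkm (1.92-fold), CG1544 (1.89-fold) and fok (1.88-fold) fell too. SXC mutant replicate 1 was the lowest array in 19 of the 25. Of the 50 genes in both groups of largest changes, 46 were also called without that array. Those that lost the call were Esp (limma adjusted p = 0.0612), CG5001 (0.0521), lectin-24A (0.0625) and CG43336 (0.182).

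Genes of DNA replication fell in the SXC mutant, the fork and the helicase holding most of the calls. Of 47 measured members of the 3 lists, 21 fell (44.7%, against 6.89% of all genes), 0 rose and 26 did not pass the test. The change was negative in all 47 of these, with a median of −0.29 on the log2 scale, against −0.006 over all genes. The members were chosen with earlier results of these data known, so this shared sign is a description and no independent support. Without SXC mutant replicate 1, 8 fell; with the trend on gene length removed, 21 fell; and against the OGA mutant arrays, 17 were lower. Among 13 measured genes of the replicative helicase and its activators 6 fell, among 8 of origin recognition and licensing 2, and among 26 of the fork 13. The counts without SXC mutant replicate 1 were 3, 0 and 5.

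Mcm6, a subunit of the MCM helicase ring, read 10.53, 10.75 and 10.77 on the SXC mutant arrays, against 11.64, 11.56 and 11.81 on the wild-type arrays. It had the largest fall of the 47, 1.99-fold (log2 −0.99, SE 0.11, limma adjusted p = 0.000903), and its partner in the ring, Mcm2, changed by −0.41 (SE 0.10). Mcm2 was not called without SXC mutant replicate 1 (limma adjusted p = 0.0937). The GINS subunits Psf2 (10.17, 10.15 and 10.09 in the SXC mutant, against 10.62, 10.58 and 10.58 in wild type) and Sld5 (−0.43 on the log2 scale, SE 0.08) fell as well. Psf2 changed by −0.45 (SE 0.07, limma adjusted p = 0.00288), with tight groups that did not overlap. Of the genes that mark and license origins, Orc1, the largest subunit of the origin recognition complex, changed by −0.33 (limma adjusted p = 0.0234) and Cdc6, which helps load the helicase, by −0.30 (limma adjusted p = 0.0267). Both lost the call without SXC mutant replicate 1 (limma adjusted p = 0.0810 and 0.0903).

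At the fork, PolD2, the second subunit of DNA polymerase delta, read 11.04, 11.25 and 11.27 in the SXC mutant, against 11.79, 11.68 and 11.88 in wild type. It fell 1.51-fold (SE 0.09 on the log2 scale, limma adjusted p = 0.00272). PCNA, the sliding clamp, read 12.18, 12.38 and 12.50 in the SXC mutant and 12.81, 12.78 and 13.04 in wild type. The clamp gene fell 1.44-fold (limma adjusted p = 0.00930), and its lowest array was SXC mutant replicate 1. RPA3, a subunit of the single-strand binding protein, changed by −0.39 (SE 0.06) and dnk, the deoxyribonucleoside kinase that supplies nucleotides, by −0.44 (SE 0.08). RnrL, the large subunit of ribonucleotide reductase, did not pass, with a log2 difference of −0.10 (95% interval −0.27 to 0.07). RnrL is named outside the rule, having been picked once its values were known.

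**Figure D3:**
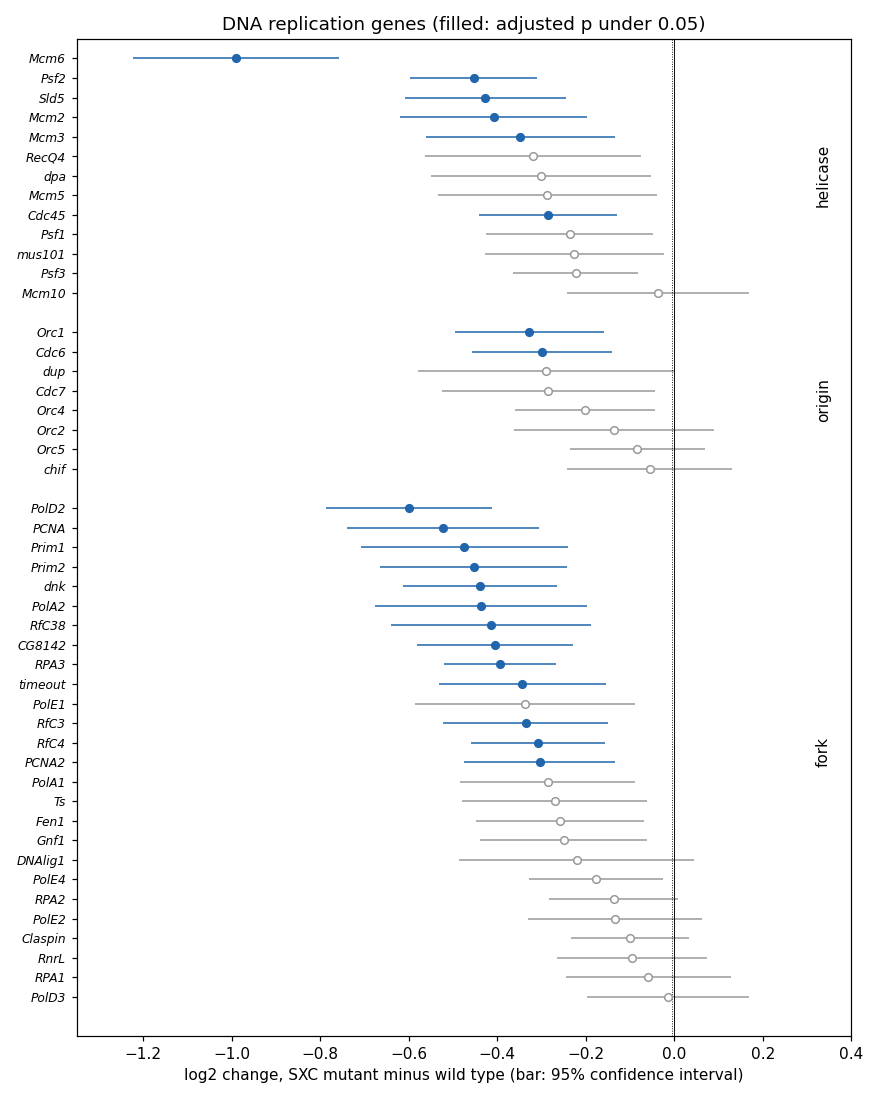
Log2 change (SXC mutant minus wild type, horizontal axis) of the 47 measured DNA replication genes with 95% confidence intervals not adjusted for the number of genes; filled points passed the test, and the dotted line is the median of all genes at −0.006. The 47 points lie below 0, from −0.99 for Mcm6 to −0.01 for PolD3.

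Genes of mitosis fell in a similar number. Of 63 measured members of the lists on mitotic kinases and kinetochores, chromosome structure, and the spindle, 24 fell (38.1%, against 6.89% of all genes) and 0 rose. The median was −0.27, 55 of the 63 changes were negative, and 11 fell without SXC mutant replicate 1. The augmin complex, which branches spindle microtubules, supplied 4 of the members with the smallest p. msd5 read 10.83, 10.88 and 10.91 in the SXC mutant, against 11.57, 11.46 and 11.71 in wild type. The groups were apart by 1.63-fold (log2 −0.71, SE 0.08, limma adjusted p = 0.000923), with little scatter in either. wac (−0.76, limma adjusted p = 0.00142), msd1 (−0.67, limma adjusted p = 0.000923) and dgt4 (−0.52, limma adjusted p = 0.00428) fell with it, and each was also called without SXC mutant replicate 1.

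Among kinetochore genes Kmn1, a component of the microtubule-binding network, read 10.40, 10.39 and 10.64 in the SXC mutant and 11.09, 11.03 and 11.14 in wild type. It fell 1.52-fold (limma adjusted p = 0.00219), while Nuf2 and Spc25 of the Ndc80 complex changed by −0.35 and −0.37 on the log2 scale. Spc25 was not called without SXC mutant replicate 1 (limma adjusted p = 0.0575). aurB, the Aurora B kinase, read 10.07, 10.41 and 10.52 in the SXC mutant, against 10.90, 10.82 and 11.09 in wild type, and fell 1.52-fold (limma adjusted p = 0.00910). Condensin and cohesin genes moved less: 3 of 18 fell (16.7%, against 6.89% of all genes), with a list median of −0.13. These were Cap-D2 (log2 −0.68) and glu (−0.43), both of condensin, and the securin gene pim (−0.31). Without SXC mutant replicate 1 Cap-D2 was still called, while glu and pim were not (limma adjusted p = 0.0770 and 0.1085). Among 21 cyclins, cyclin-dependent kinases and their regulators 6 fell (28.6%, against 6.89% of all genes) and 0 rose, and 3 fell without SXC mutant replicate 1. Cdk2, the S-phase kinase, read 8.76, 8.97 and 9.27 in the SXC mutant, against 9.94, 9.57 and 9.99 in wild type. It fell 1.78-fold (limma adjusted p = 0.00497) with SXC mutant replicate 1 lowest, and the kinase-binding subunits Cks85A (−0.46) and Cks30A (−0.60) and the anaphase activator fzy (−0.39) fell beside it. Without SXC mutant replicate 1 fzy was not called (limma adjusted p = 0.0619).

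Sets of genes that work on DNA or chromatin beside replication also held calls. Of 31 genes of DNA repair 4 fell (12.9%, and 3 without SXC mutant replicate 1), with a list median of −0.07; they were Ercc1 (log2 −0.35) and Xpac (−0.34) of nucleotide excision, the mismatch gene Msh6 (−0.48) and the alkyltransferase agt (−0.34). Of 15 histone chaperone and variant genes 3 fell (and 3 without SXC mutant replicate 1): the H2A variant His2Av (−0.46), the chaperone asf1 (−0.31) and Slbp, which binds the stem-loop of histone mRNAs (−0.51). In the heterochromatin list, 2 of 17 rose (11.8%) and 4 fell (23.5%), with 1 and 1 without SXC mutant replicate 1. HP1c, a euchromatic relative of heterochromatin protein 1, changed by −0.43 (limma adjusted p = 0.00308), and Hmr, the hybrid male rescue gene, by −0.47. wde, the cofactor of the H3K9 methyltransferase Eggless, changed by 0.39 in the other direction, and ADD1 by 0.59.

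The Polycomb group itself, to which sxc belongs, had 1 call among 15 other measured genes. Asx (Additional sex combs), a subunit of the complex that removes ubiquitin from histone H2A, read 10.45, 10.22 and 10.37 in the SXC mutant, against 9.79, 9.84 and 9.84 in wild type. It rose 1.44-fold (log2 0.52, SE 0.09, limma adjusted p = 0.00607), without overlap. The list median was 0.00 and 14 members did not pass, with changes from −0.19 in esc upward. Of 34 measured homeotic and other classical Polycomb target genes 0 were called by limma in either direction; their changes lay between −0.21 (Doc2) and 0.28 (toy), with a median of 0.01. The levels of 30 of these 34 were in the dimmest 40% of genes, where few calls were made for any gene, so a change was not readily detectable there. Of 20 Trithorax group genes 1 fell (5.0%, under the 6.89% of all genes), the Brahma complex subunit Snr1 (log2 −0.28), whose call ended without SXC mutant replicate 1.

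In the pathway that feeds and reads O-GlcNAc, 2 of 10 measured genes fell: sxc itself and Gnpnat, the glucosamine-phosphate N-acetyltransferase of the hexosamine pathway. Gnpnat read 10.48, 10.47 and 10.46 in the SXC mutant, against 10.90, 10.78 and 10.74 in wild type. The difference was small, 1.26-fold (limma adjusted p = 0.0133). Eogt, which attaches O-GlcNAc to secreted and membrane proteins in place of nuclear ones, changed by −0.37 (SE 0.09, limma adjusted p = 0.0308, and 0.109 without SXC mutant replicate 1). Among 60 genes of protein glycosylation 10 fell (16.7%, against 6.89% of all genes) and 0 rose, with a median of −0.04, while without SXC mutant replicate 1 1 fell and against the OGA mutant arrays 13 were lower. Alg14, of the early lipid-linked N-glycan steps, read 9.43, 9.37 and 9.46 in the SXC mutant and 9.999, 9.93 and 9.91 in wild type. Its fall was 1.44-fold (limma adjusted p = 0.00195). beta4GalT7, which starts proteoglycan chains (log2 −0.39), O-fut1, which fucosylates Notch (−0.40), and Gmd, of GDP-fucose synthesis (−0.24), also fell, but were not called without SXC mutant replicate 1 (limma adjusted p = 0.0562, 0.0660 and 0.0556). Of 26 nucleoporin genes, whose proteins are classic O-GlcNAc carriers, 2 fell, Nup35 (−0.37) and Nup37 (−0.36), a share of 7.69% that is near the 6.89% of all genes. Neither was called without SXC mutant replicate 1 (limma adjusted p = 0.0563 and 0.100). Of the 26 changes 23 were negative, around a median of −0.10.

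**Figure D4:**
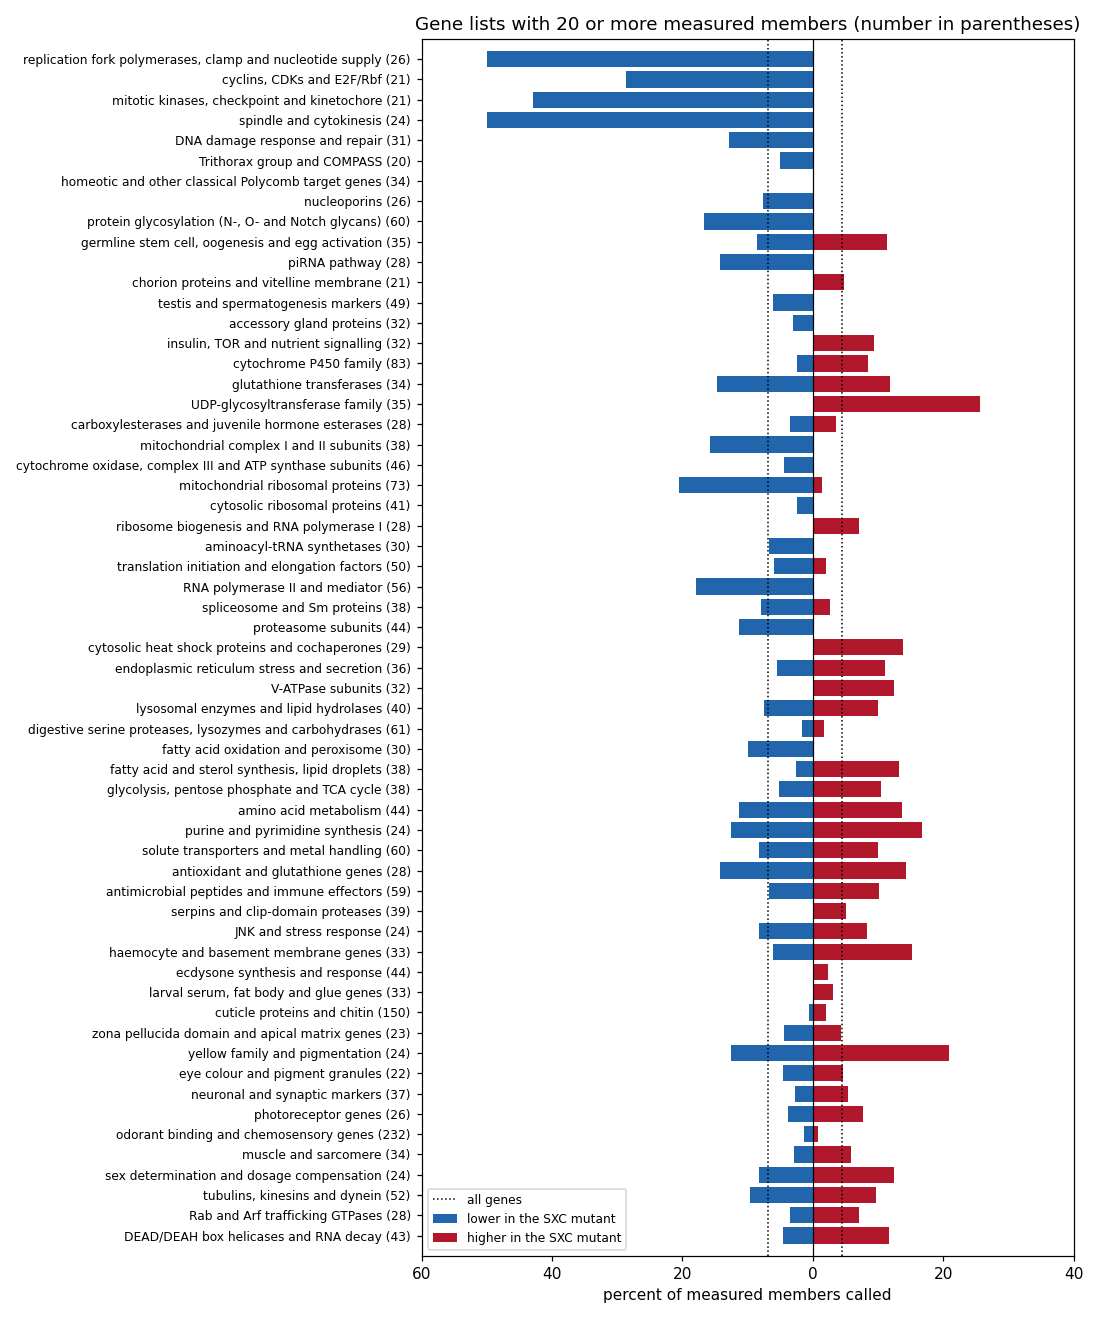
Percent of the measured members of each gene list called higher (to the right) or lower (to the left) in the SXC mutant than in wild type, for lists with 20 or more measured members; dotted lines mark 4.44% and 6.89%, the shares of all genes. Replication fork genes (13 of 26 lower) and spindle genes (12 of 24 lower) reach farthest to the left, and UDP-glycosyltransferases (25.7% higher) farthest to the right.

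Detoxification families moved in different patterns. UDP-glycosyltransferases, which attach sugars to small foreign and endogenous molecules, had 9 of 35 members higher (25.7%, against 4.44% of all genes) and 0 lower, with a median of 0.12. Of the 35, 5 were higher without SXC mutant replicate 1. Ugt49B1 read 8.54, 8.18 and 8.09 in the SXC mutant, against 7.38, 7.51 and 7.29 in wild type, and was 1.84-fold higher (limma adjusted p = 0.00253). Ugt302E1 read 7.004, 6.47 and 6.77 in the SXC mutant and 5.88, 5.85 and 5.88 in wild type, also 1.84-fold higher. Neither gene had overlapping groups, and Ugt36E1 (log2 0.66) and Ugt49C1 (0.64) rose too. Members of this family are close in sequence, and signal of one member on the probes of another cannot be told apart here.

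The cytochrome P450 family, oxidases of foreign compounds and hormones, had 7 of 83 members higher (8.43%) and 2 lower (2.41%), with 6 and 1 without SXC mutant replicate 1. Cyp12a5 rose 1.61-fold beside Cyp6a13 and Cyp6w1, and Cyp4p3 read 8.57, 8.42 and 8.47 in the SXC mutant, against 9.28, 9.25 and 8.98 in wild type, a 1.61-fold fall (limma adjusted p = 0.00260). Glutathione transferases went both ways, with 4 of 34 higher (11.8%) and 5 lower (14.7%), and 3 and 5 without SXC mutant replicate 1. GstS1 read 9.25, 8.79 and 8.83 in the SXC mutant, against 8.16, 8.20 and 8.05 in wild type. This was a 1.76-fold rise (limma adjusted p = 0.00210), and GstE2 rose by 0.47 on the log2 scale. GstT3 fell to 9.77, 9.72 and 9.63 in the SXC mutant, against 10.69, 10.68 and 10.42 in wild type (limma adjusted p = 0.000524), and its relative GstT1 changed by −0.42. In the antioxidant list 4 of 28 rose and 4 fell (14.3% each), with 1 and 2 without SXC mutant replicate 1. The largest change of this list was a fall, in Prx6c, which read 9.15, 8.63 and 8.86 in the SXC mutant, against 10.45, 10.07 and 9.77 in wild type. It was 2.33-fold lower (limma adjusted p = 0.00444, and 0.0100 without SXC mutant replicate 1). Gclc, the catalytic subunit of the first enzyme of glutathione synthesis, read 11.58, 11.47 and 11.65 in the SXC mutant, against 10.84, 10.97 and 10.80 in wild type. It rose 1.62-fold (limma adjusted p = 0.00128), while the monothiol glutaredoxin Grx5 changed by −0.40.

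The list of yellow family and cuticle pigmentation genes had 8 calls among 24 measured genes, 5 higher (20.8%, against 4.44% of all genes) and 3 lower (12.5%, against 6.89%), with 3 and 2 without SXC mutant replicate 1. Some of them were in enzymes of the catecholamine pathway known to act against each other. The enzyme encoded by e (ebony) joins dopamine to beta-alanine, which gives a light, sclerotised cuticle. It read 8.82, 8.87 and 8.93 in the SXC mutant, against 9.65, 9.62 and 9.56 in wild type. The fall was 1.67-fold (log2 −0.74, SE 0.06, limma adjusted p = 0.000424), with almost no scatter within groups. The enzyme encoded by t (tan) splits that conjugate again, and read 5.84, 5.42 and 5.55 in the SXC mutant, against 4.76, 4.83 and 4.65 in wild type. Its log2 difference was 0.85 (limma adjusted p = 0.00219), and no fold is given because the wild-type values lie below 4.97, the upper bound of the dimmest of the 5 groups of genes by level. speck, an arylalkylamine N-acetyltransferase gene whose product takes dopamine out of melanin synthesis, read 6.79, 6.89 and 7.25 in the SXC mutant and 7.86, 7.66 and 8.04 in wild type. All 3 SXC mutant arrays were lower, by 1.83-fold (limma adjusted p = 0.00253).

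yellow-h, a member of the yellow family on chromosome 4, read 11.85, 11.59 and 11.54 in the SXC mutant, against 9.999, 10.44 and 10.35 in wild type. It rose 2.64-fold (limma adjusted p = 0.000923), the largest change of the list. All 4 of e, yellow-h, t and speck were also called without SXC mutant replicate 1 (limma adjusted p = 0.00189, 0.00545, 0.00760 and 0.0116). Of 22 genes of eye colour 1 rose and 1 fell (4.55% each, near the shares of all genes), Pu (log2 0.26) and pr (−0.31), both of pteridine synthesis, and neither was called without SXC mutant replicate 1.

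Genes of intermediary metabolism were split. In carbohydrate metabolism 4 of 38 rose (10.5%) and 2 fell (5.26%), with 3 and 1 without SXC mutant replicate 1. Gpdh1, the glycerol-3-phosphate dehydrogenase, read 11.35, 10.998 and 10.84 in the SXC mutant, against 10.27, 10.37 and 10.16 in wild type, and rose 1.74-fold (limma adjusted p = 0.00260). The trehalose transporter Tret1-1 read 11.92, 11.80 and 11.85 in the SXC mutant and 10.99, 11.28 and 11.29 in wild type, 1.59-fold higher. Both had groups that did not overlap. The gluconeogenic enzyme gene fbp changed in the other direction (log2 −0.54, limma adjusted p = 0.00927).

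In lipid synthesis 5 of 38 rose (13.2%) and 1 fell (2.63%), with 2 and 1 without SXC mutant replicate 1. Cyt-b5-r, a cytochrome b5-related desaturase-like gene, read 12.75, 11.67 and 11.68 in the SXC mutant, against 10.29, 10.31 and 10.44 in wild type. Its rise of 3.21-fold became 1.33 on the log2 scale without SXC mutant replicate 1, where it had been 1.68. Desat1, the main fatty acid desaturase, rose 1.52-fold, and Agpat4, an acyltransferase of phospholipid synthesis, fell 1.84-fold (8.13, 8.15 and 8.23 in the SXC mutant, against 9.28, 9.01 and 8.85 in wild type, limma adjusted p = 0.00101). In fatty acid oxidation and peroxisomes 3 of 30 fell (and 2 without SXC mutant replicate 1) and 0 rose. Had2, a hydroxyacyl-CoA dehydrogenase gene, read 9.05, 8.96 and 9.37 in the SXC mutant and 10.72, 10.16 and 10.62 in wild type, 2.59-fold lower (limma adjusted p = 0.000813).

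In amino acid metabolism 6 of 44 rose (13.6%) and 5 fell (11.4%), with 2 and 5 without SXC mutant replicate 1. Gs1, the mitochondrial glutamine synthetase, read 8.17, 7.60 and 7.47 in the SXC mutant, against 6.74, 6.86 and 6.87 in wild type, and rose 1.89-fold (limma adjusted p = 0.00493). P5CDh1, which turns proline breakdown products into glutamate, rose 1.56-fold. Of 60 solute transporters and metal handling genes 6 rose and 5 fell, with 4 and 3 without SXC mutant replicate 1. yin, a peptide transporter, read 8.16, 8.38 and 8.61 in the SXC mutant, against 9.77, 9.54 and 9.55 in wild type, 2.36-fold lower (limma adjusted p = 0.000524). The organic anion transporters that rose included Oatp74D, the ecdysone importer (log2 0.51, limma adjusted p = 0.00272), and Oatp30B (0.9998, limma adjusted p = 0.00374). In insulin, TOR and nutrient signalling 3 of 32 rose (9.38%) and 0 fell: the ubiquitin ligase gene slmb (0.44), the TOR-restraining sestrin Sesn (0.44) and the fat lipase gene bmm (0.31). Of these, slmb was also called without SXC mutant replicate 1 (limma adjusted p = 0.0452).

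Lysosomal genes had 4 of 40 members higher and 3 lower, with 3 and 3 without SXC mutant replicate 1. Ids, the iduronate sulfatase, read 7.10, 7.58 and 7.44 in the SXC mutant, against 8.84, 8.57 and 8.43 in wild type. It fell 2.36-fold (limma adjusted p = 0.000970), and Ppt1 read 10.68, 10.67 and 10.64 in the SXC mutant and 11.40, 11.46 and 11.32 in wild type. The glycosidase gene betaGlu rose by 0.43 on the log2 scale. The proton pump that acidifies lysosomes had 4 of 32 V-ATPase subunit genes higher (12.5%, and 3 without SXC mutant replicate 1) and 0 lower, led by VhaSFD (log2 0.37, SE 0.06, limma adjusted p = 0.00548) and Vha100-5 (0.80, SE 0.14).

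Genes of the mitochondrial ribosome, the respiratory chain and transcription that fell did so by small amounts. Of 73 mitochondrial ribosomal protein genes 15 fell (20.5%, against 6.89% of all genes) and 1 rose, 68 had a negative change and the median was −0.17. mRpL9 had the largest fall, 1.36-fold (10.06, 10.22 and 10.14 in the SXC mutant, against 10.61, 10.58 and 10.55 in wild type, limma adjusted p = 0.00413). mRpL27 (−0.35), mRpS24 (−0.32) and mRpL49 (−0.30) fell with it. These are short genes, with a median length of 910 bp, and with the trend on gene length removed 8 fell, as many as without SXC mutant replicate 1. Among 41 cytosolic ribosomal protein genes 1 fell, RpS19b (log2 −0.37), and the median was −0.007.

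Of 38 subunits of respiratory complexes I and II 6 fell (15.8%, and 1 without SXC mutant replicate 1), among them ND-B14.5A (−0.35) and the succinate dehydrogenase subunit SdhD (−0.32). Of 46 genes of complex III, cytochrome oxidase and ATP synthase 2 fell (4.35%, under the 6.89% of all genes), with 2 also without SXC mutant replicate 1. Of 56 genes of RNA polymerase II and its general factors, including Mediator, 10 fell (17.9%, against 6.89% of all genes) and 0 rose. Without SXC mutant replicate 1 4 fell, and 5 were lower against the OGA mutant arrays. MED11, a Mediator head subunit, read 10.13, 10.14 and 10.19 in the SXC mutant, against 10.58, 10.46 and 10.48 in wild type, a 1.28-fold fall (limma adjusted p = 0.00927). Taf12 (−0.33), MED18 (−0.27) and MED28 (−0.31) were lower by similar amounts. Of 44 proteasome genes 5 fell (11.4%, against 6.89%), led by Uch-L5, a proteasome-bound deubiquitinase (−0.49, limma adjusted p = 0.00785). This count was 1 without SXC mutant replicate 1, 1 with the trend on gene length removed and 1 against the OGA mutant arrays.

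Among chaperone and secretion genes more rose than fell. Of 29 cytosolic heat shock and cochaperone genes 4 rose (13.8%, against 4.44% of all genes) and 0 fell: the cochaperone stv (log2 0.34), Hsp110 (0.37) and the chaperonin subunits CCT4 (0.23) and CCT1 (0.26). None passed in limma (0 of 29) without SXC mutant replicate 1. In the endoplasmic reticulum list 4 of 36 rose (11.1%) and 2 fell (5.56%), or 2 and 1 without SXC mutant replicate 1, with Sec24CD of the COPII coat at 0.34 and opm at −0.46.

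Immune genes had 6 of 59 members higher (10.2%) and 4 lower (6.78%, near the 6.89% of all genes), with 2 and 2 without SXC mutant replicate 1. DptB, a diptericin peptide gene, read 9.87, 9.55 and 9.60 in the SXC mutant, against 8.93, 8.97 and 9.06 in wild type, and rose 1.61-fold (limma adjusted p = 0.00619). AttD, an attacin, read 9.13, 9.16 and 9.34 in the SXC mutant and 9.76, 9.81 and 9.72 in wild type, a fall of 1.47-fold (limma adjusted p = 0.00244). The groups were separate in both. cact, the IkappaB-like inhibitor of Toll signalling, rose 1.43-fold (limma adjusted p = 0.00484) and Tep3, a thioester-containing protein, 1.498-fold. Of 33 haemocyte and basement membrane genes 5 rose (15.2%) and 2 fell (6.06%, near the share of all genes), and without SXC mutant replicate 1 1 rose and 0 fell in limma. The phagocytic receptor gene eater read 13.56, 13.35 and 13.24 in the SXC mutant, against 12.74, 12.81 and 12.88 in wild type (1.49-fold higher, limma adjusted p = 0.0108). PPO2, the prophenoloxidase of crystal cells, read 10.43, 10.80 and 11.18 in the SXC mutant and 11.87, 11.36 and 11.61 in wild type (1.75-fold lower, limma adjusted p = 0.0246), and its call ended without SXC mutant replicate 1 (0.0929).

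In the list of JNK and related stress signalling 2 of 24 rose and 2 fell (8.33% each), with 1 and 0 in limma without SXC mutant replicate 1. puc (puckered), the phosphatase that is both a target and a brake of JNK, read 11.44, 11.33 and 11.52 in the SXC mutant, against 10.57, 10.84 and 10.79 in wild type. The rise was 1.62-fold (log2 0.70, SE 0.08, limma adjusted p = 0.00141), with groups well apart. Traf4, an adaptor upstream of JNK, changed by 0.43, and the receptor genes dome (−0.44) and wgn (−0.36) fell. Of 14 clock genes 2 rose (14.3%, against 4.44% of all genes), also without SXC mutant replicate 1, vri and Pdp1, the paired repressor and activator of the second clock loop. vri read 9.20, 8.67 and 8.89 in the SXC mutant, against 7.94, 8.11 and 7.85 in wild type, 1.94-fold higher (limma adjusted p = 0.00308). Pdp1 read 9.32, 9.09 and 9.17 in the SXC mutant and 8.39, 8.69 and 8.56 in wild type, 1.57-fold higher, and neither overlapped.

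Cell-surface and matrix genes supplied several large changes. Of 23 zona pellucida domain genes zye rose and cyr fell (4.35% each), the first also without SXC mutant replicate 1. zye read 8.63, 8.18 and 8.51 in the SXC mutant, against 6.9999, 6.84 and 6.71 in wild type, a 3.01-fold rise (limma adjusted p = 0.00116). In the Ly6 family of small membrane-anchored proteins 4 of 17 rose (23.5%, against 4.44% of all genes) and 1 fell (5.88%), with 2 and 0 in limma without SXC mutant replicate 1. bero read 10.95, 10.24 and 9.95 in the SXC mutant, against 8.88, 9.13 and 8.68 in wild type (2.80-fold higher, limma adjusted p = 0.00402). bou, which is needed for septate junctions, rose by 0.56 and its relative crok fell by 0.29 on the log2 scale.

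The title of the series points to oogenesis, so genes of the germ line and ovary were examined as a group. Of 35 genes of germline stem cells, oogenesis and egg activation 4 rose (11.4%) and 3 fell (8.57%), with a median of 0.03, and without SXC mutant replicate 1 3 rose and 1 fell. png (pan gu), the kinase that activates translation at egg activation, read 7.77, 7.89 and 7.99 in the SXC mutant, against 8.68, 8.47 and 8.57 in wild type. It fell 1.61-fold (limma adjusted p = 0.00128). grk (gurken), the oocyte signal that patterns the egg, read 11.61, 11.55 and 11.48 in the SXC mutant and 11.08, 11.24 and 11.12 in wild type, 1.32-fold higher (limma adjusted p = 0.00654). Sxl, the female sex determination switch, changed by 0.43 against wild type, and by 0.13 against the OGA mutant arrays, where it was not called.

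Of 28 piRNA pathway genes 4 fell (14.3%, and 3 without SXC mutant replicate 1) and 0 rose. squ, a cytoplasmic piRNA factor of the female germ line, read 10.25, 10.66 and 10.76 in the SXC mutant, against 11.40, 11.36 and 11.51 in wild type, 1.82-fold lower (limma adjusted p = 0.00173). fs(1)Yb, which acts in ovarian somatic cells, changed by −0.47, the nuclease gene zuc by −0.52 and the silencing factor Panx by −0.31. Eggshell genes had 1 call among 21, yellow-g (log2 0.78, limma adjusted p = 0.0268), not called without SXC mutant replicate 1, and of 5 genes of yolk and its uptake 0 were called by limma, with changes from 0.01 to 0.21. gammaTub37C, the maternal gamma-tubulin, read 8.36, 8.05 and 7.87 in the SXC mutant, against 7.13, 7.29 and 7.33 in wild type (1.80-fold higher, limma adjusted p = 0.00219).

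Since no tissue is given, lists of markers were read on all arrays. The mean level of 21 eggshell genes was 5.77 to 5.95 on the SXC mutant arrays and 5.74 to 5.81 on the wild-type arrays, and 14 of the 21 were in the dimmest 40% of genes, under 6.05. The mean of 49 testis genes was 5.31 to 5.34 in the SXC mutant, against 5.36 to 5.39 in wild type, with 40 in the dimmest 40%. Accessory gland genes were at 4.76 to 4.85 in the SXC mutant and 4.80 to 4.83 in wild type (29 of 32 dim), and larval serum, fat body and glue genes at 5.22 to 5.39 in the SXC mutant and 5.20 to 5.30 in wild type (28 of 33 dim). Haemocyte and basement membrane genes averaged 10.43 to 10.53 in the SXC mutant, against 10.47 to 10.52 in wild type, and 5 of 33 were dim. Germline and oogenesis genes averaged 8.67 to 8.75 in the SXC mutant and 8.63 to 8.68 in wild type (11 of 35 dim), and eye colour genes 8.84 to 8.88 in the SXC mutant and 8.83 to 8.89 in wild type (4 of 22 dim). Most markers of eggshell, testis and accessory gland were thus dim, while most of those of haemocytes, germ line and eye colour were not. Further marker lists had 207 of 232 chemosensory, 47 of 61 digestive and 24 of 37 neuronal genes dim. In muscle 17 of 34 were dim, among photoreceptor genes 13 of 26 and among yolk genes 2 of 5. Fewer cells of a type and less RNA per cell cannot be told apart in such samples.

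The direction of the calls differed with gene length. Genes called higher had a median length of 5336 bp (530 genes with a length in RefSeq), genes called lower 1478 bp (823), and all genes 2263 bp (11893). The genes were put in 5 groups of nearly equal size by length. Among the shortest (147 to 1119 bp) 35 were higher and 230 lower. Among the longest (6673 bp and over) 221 were higher and 64 lower. The groups between had, in order of length, 37 higher and 291 lower, 90 and 139, and 147 and 99. Without SXC mutant replicate 1 the shortest group had 20 higher and 152 lower, and the longest 108 and 26. With each array's linear trend on length removed, an alternative whose counts by length were added after seeing the data, the shortest group had 50 higher and 180 lower, and the longest 181 and 105. The medians of all genes in these groups differed little, −0.03 in the shortest and 0.04 in the longest. Between the OGA mutant and wild type these medians were −0.04 in the shortest and 0.03 in the longest, a trend in the same direction, and both comparisons share the wild-type arrays. The slope on length of the deviations from each gene’s mean over the 9 arrays was positive on all 3 SXC mutant arrays and on 2 of the 3 OGA mutant arrays, and negative on all 3 wild-type arrays.

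**Figure D5:**
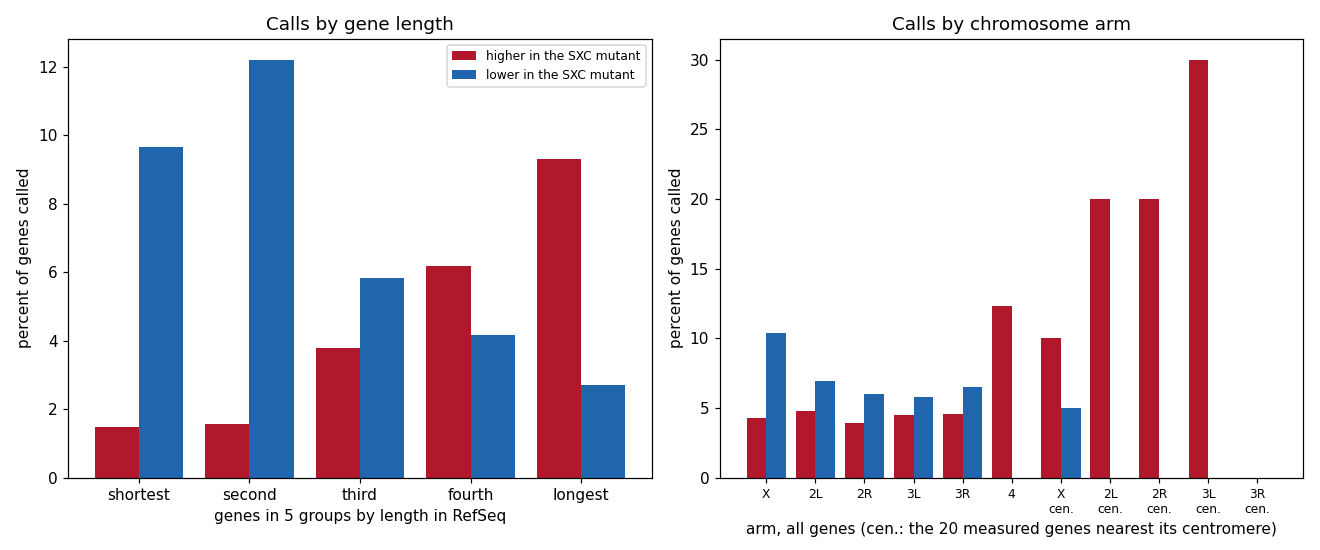
Percent of genes called higher and lower in the SXC mutant than in wild type (vertical axes), in 5 groups by gene length (left) and by chromosome arm or the 20 measured genes nearest each centromere (right). The share called higher goes from 1.47% in the shortest group to 9.29% in the longest, and chromosome 4 has 8 genes higher and 0 lower.

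Position on the chromosomes was examined because sxc lies near the centromere of chromosome 2R and because chromosome 4 is largely heterochromatic. Of 65 genes on chromosome 4, 8 were higher (12.3%, against 4.44% of all genes), 0 were lower and 52 had a positive change, with a median of 0.13. Beside yellow-h and unc-13, the presynaptic priming factor (10.80, 10.72 and 10.86 in the SXC mutant, against 10.11, 10.27 and 10.18 in wild type, 1.52-fold higher, limma adjusted p = 0.0127), these were Pur-alpha, Tdg, CG11155, CG31999, mav and Ephrin, with rises from 0.32 to 0.49. These 6 fall outside the rule for named genes. Without SXC mutant replicate 1, 4 genes were higher. Genes on this chromosome are long, with a median of 10578 bp; with the trend on gene length removed 8 were higher and the median was 0.12. On the X chromosome 80 of 1873 genes were higher and 195 lower (10.4%, against 6.89% of all genes).

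Near the centromeres, 18 of the 20 closest measured genes on 2L and 18 of 20 on 2R had a positive change, with 4 higher and 0 lower on each. On 3L 13 were positive with 6 higher, on 3R 12 with 0 called by limma, and on X 12 with 2 higher and 1 lower. Over all genes 5775 of 11982 changes were positive, with 4.44% higher and 6.89% lower. Median lengths of the 20 genes were 7729 bp (2L), 16438.5 (2R), 12359 (3L), 5194.5 (3R) and 2433.5 (X), against 2263 over all genes. With the trend on gene length removed, 6 were higher on 2L, 3 on 2R and 4 on 3L. Of the 40 measured genes next to sxc, 32 had a positive change, 8 were higher and 1 was lower. On the side towards the centromere 19 of 20 were positive and 6 higher, and on the other side 13 of 20 were positive, with 2 higher and 1 lower. The kinase gene Stlk (log2 0.49, SE 0.07) and the RhoGAP gene conu (0.33, SE 0.07) lie on the centromere side, with Gprk1 (0.30), CG17486 (0.39), CG3107 (0.40) and Atf6 (0.38). CG10417 (0.46) and hrm (0.36) rose on the other side and scaf, a serine protease homologue, fell (−0.44). Without SXC mutant replicate 1, 4 of the 40 were higher and 1 lower. Genes on the centromere side had a median length of 9459 bp. With the trend on gene length removed, 7 of the 40 were higher and 1 lower, with 5 higher on the centromere side. Whether the mutant and wild-type chromosomes share the same background around sxc is not stated in the labels, and its part in these values was not tested.

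The OGA mutant arrays, on which sxc read 11.86, 11.91 and 11.90, gave another set to compare with. Against them 1219 genes (10.2%) were called in the SXC mutant. All 50 genes with the largest changes against wild type were also called there with the same sign. Both comparisons use the same SXC mutant arrays, so the second is not independent of the first. The log2 change of Mcm6 was −1.09 against the OGA mutant and −0.99 against wild type, that of e −0.80 and −0.74, that of yellow-h 1.65 and 1.40, and that of MYPT-75D 0.88 and 0.92. Between the OGA mutant and wild type the 49 of these 50 genes other than sxc differed by −0.36 to 0.13, and limma called 0 of them; over all genes it called 1, with 465 at an unadjusted p under 0.05.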

How the data were processed

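RNA of 9 samples (SXC mutant, OGA mutant and wild type, 3 each) was hybridised by the authors to Affymetrix Drosophila_2 arrays. The deposited values are log2 levels, 1 per probe set and array; the log2 scale was read from the values, which run from 3.427 to 15.361 with array medians of 5.97 to 6.05. Per the submitters' processing notes MAS5, RMA and Partek were used; the notes give neither role nor version, so the method behind these values is unknown. Precision is limited by the number of arrays, 3 per group.

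Of 18952 probe sets 183 controls were left out. The array's annotation paired 13647 probe sets with 1 gene, 402 with several and 4720 with none listed, and names, lengths and gene order came from RefSeq (Release 6 plus ISO1 MT). Each of 11982 genes was read from its brightest probe set listed with that gene alone.

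Group means over all 9 arrays were fitted in R 4.3.3 with limma 3.58.1 (moderated variances, 6 residual and 5.13 prior degrees of freedom), and p-values were adjusted over all probe sets. The fit was tested on simulated data. The replicate numbers were not used as pairs. Deviations of same-numbered SXC mutant and wild-type arrays correlated at −0.133, 0.035 and −0.017, and those of differently numbered arrays at −0.264 to 0.229. With 3 arrays per group these values cannot decide whether the numbers mark a pairing.

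Named genes are sxc and Oga, the 25 largest rises and 25 largest falls among called genes with separate groups whose brighter group averaged above 7.50, the 10 with the smallest p in each direction, from each list the called members with the smallest p (at most 4), and called genes within 20 measured genes of sxc. The 71 lists held 3157 members, 2619 of them measured. Members and lists were chosen with earlier results of these data known, and wrongly entered members were taken out of some lists after their values had been seen; no list was tested as a whole. Alternatives were the 6 arrays alone, quantile normalization, median centring, a filter on dim probe sets, a robust prior with an intensity trend, array weights, a replicate block, 1 probe set per gene, no moderation, removal of the length trend, the OGA mutant arrays as controls, and leaving out each array.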

Additional observations from a re-analysis of the deposited data

Results flagged for a closer look

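The control probe sets, which no comparison of genes used, held a signal that differed with the group. The 3′ minus 5′ difference of GAPDH_r2 was higher by 0.888 on the log2 scale in the SXC mutant than in wild type, at 3.29, 2.74 and 2.78 on the SXC mutant arrays, against 1.79, 2.31 and 2.04 on the wild-type arrays and 2.07, 2.25 and 2.01 on the OGA mutant arrays. The same difference in means was 0.16 for GAPDH, −0.03 for ACTIN, −0.05 for eIF4a and −0.01 for Act5C_r2. Its part in the changes of genes was not tested.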

How the results depend on the processing

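The count of 1358 called genes (532 higher, 826 lower, 278 at 1.5-fold or more) became 2409 with array weights (875 higher, 1534 lower) and 570 with no moderation (163 higher, 407 lower, 122 at 1.5-fold or more). Leaving out 1 array at a time gave 495 to 1102 genes, 198 to 404 higher and 297 to 698 lower, with 182 to 337 at 1.5-fold or more; the lowest of each came with wild type replicate 1 left out, and 182 also with SXC mutant replicate 1 left out. Falls outnumbered rises among the called genes in all 17 settings. With the replicate numbers as a block, 1064 genes were called, 429 higher and 635 lower. Of 265 named genes with a call, none changed sign. Where the groups do not overlap, leaving out 1 array cannot change the sign. Of the 265, 130 stayed called with no moderation, 214 against the OGA mutant arrays, 177 without SXC mutant replicate 1 and 151 without wild type replicate 1. Oga, which was not called, turned positive with array weights (0.0568) and quantile normalization (0.0126), and with 1 array left out it lay between −0.130 and 0.0913, positive without SXC mutant replicate 1 (0.0044) or 2 (0.0076) or wild type replicate 1. Against the OGA mutant arrays as controls its difference was 1.03 (limma adjusted p = 0.000711). Calls were few among dim genes, and the part of background signal in this was not tested.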
